A study of Mus musculus with 2 samples.

Results

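Among the positions that the authors list as Ptf1a peaks, 200 of 30691 lay where the unselected input chromatin itself was piled up. They were chosen by their input reads, as the listed positions on chromosomes 1 to 19 with more than 1000 input reads within 5 kb, after each read's 5′ end had been moved 73 bp downstream. All values of input level given here are descriptions. On chromosome X another 23 listed positions passed the same number of input reads and are outside the rule.

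The study measured binding of Ptf1a in 266.6 cells by chromatin immunoprecipitation and sequencing (ChIP-seq), to set bound sites beside the genes expressed in embryonic dorsal pancreatic buds of Ptf1a +/- and -/- mice, which are not analysed here. The 266.6 line comes from a pancreatic tumour of mice with an elastase-driven SV40 T antigen and keeps acinar features, and in the study it takes the place of the progenitors of the embryo. Both libraries were from passage 26 of this line, with the strain given as C57BL/6 X SJL, after 10 min in 1% formaldehyde and shearing to between 100 and 500 bp. The Ptf1a ChIP library pooled 2 immunoprecipitations made with an antibody from the Beta Cell Biology Consortium, and the input library had no antibody. There was 1 library per group, of 28502488 ChIP and 27959618 input reads of 37 bp placed on mm9, so tests compare reads within or between these 2 libraries and not conditions. Intervals cover counting error only, since PCR copies of a fragment cannot be told from separate fragments without molecular identifiers.

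Ptf1a is a basic helix-loop-helix factor that binds DNA together with a ubiquitous E protein and either Rbpj or Rbpjl, and it drives pancreas formation and, later, the genes of digestive enzymes. A bound site in ChIP-seq shows a narrow pile of ChIP reads that the input lacks, with plus-strand reads before the site and minus-strand reads after it. Mouse chromosomes carry their centromere and its satellite repeats at one end, next to the first assembled bases. A reference genome holds fewer copies of such repeats, and of ribosomal RNA genes and other multicopy sequence, than the cell does, so reads from many copies can be placed on the few that are represented. Which of the stretches below are of this kind was not tested, because no sequence or annotation of mm9 was used.

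The 200 positions lay in 13 stretches on 9 chromosomes, with gaps of at most 5.25 kb between neighbours of a stretch and at least 54.5 kb between stretches of a chromosome. Of these stretches, 9 held 5 or more members and together 192 of the 200. In the first 3.3 Mb of their chromosomes lay 152 members (76.0%) in 6 stretches, against 41 other listed positions on chromosomes 1 to 19. A single stretch on chromosome 11, with listed positions from 3025672 to 3099595, held 101 members (50.5%). Without that stretch, 51.5% of members lay in the first 3.3 Mb. Members of 1 stretch share their flanks and much of their input, so they are not independent of each other.

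The list was dense in this sequence. Points with more than 1000 input reads within 5 kb covered 368 kb of chromosomes 1 to 19, sampled each 100 bp, and held 544 listed positions per Mb. The other 1 kb bins with an input read held 13.3 per Mb. This density followed in part from the rule, since a listed position brings its own reads, and it was not tested.

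At the 6 stretches near chromosome starts, ChIP reads were fewer than input reads at 5 and more at 1, after scaling each library to its total. Read totals were taken from 1.5 kb before the first to 1.5 kb after the last member, and each ratio of ChIP to input is of shares of the placed reads, with an exact 95% interval. On chromosome 4 the stretch from 3006892 to 3013375 held 17 members, 1646 ChIP and 3273 input reads, a ratio of 0.493 (0.465 to 0.524). On chromosome 16 the stretch from 3231613 to 3241026 held 13 members and had a ratio of 0.507 (0.478 to 0.539), with 1627 ChIP and 3145 input reads. On chromosome 17 the stretch from 3006844 to 3036417 held 12 members and had a ratio of 0.508 (0.484 to 0.534). The intervals of these 3 stretches overlapped, but on chromosome 4 this rested on the window. Over the whole block of points above 1000 input reads within 5 kb, the chromosome 4 ratio was 0.641 (0.612 to 0.672). The blocks around the stretches on chromosomes 16 and 17 had 0.511 (0.481 to 0.542) and 0.510 (0.486 to 0.536). The lone member at 3011190 of chromosome 3 had a ratio of 0.562 (0.469 to 0.671) over its surroundings. The chromosome 11 stretch stood higher, at 0.878 (0.862 to 0.893), with 23867 ChIP and 26679 input reads. The stretch on chromosome 18 from 3005365 to 3010363, with 8 members, was the one above input, at 1.51 (1.43 to 1.61), with 2795 ChIP and 1810 input reads. At its member 3008723 alone, 861 ChIP and 65 input reads lay within 100 bp.

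The 7 stretches away from chromosome starts had ratios between 0.677 and 0.840. For the lone member at 13740783 on chromosome 17 this rested on the window, with 0.788 within 1.5 kb and 0.390 over its whole high-input block (870 ChIP and 2186 input reads). The highest input of all members was on chromosome 17 from 39980287 to 39985561, where 7 members had 12251 to 14696 input reads within 5 kb. Input there formed a block with sharp edges. Windows of 100 bp with 10 or more input reads ran from 39979900 to 39985899, over 6.0 kb, with 11 to 795 reads each, while the 1 kb before held 6 input reads and the 1 kb after held 5. The block held 14675 input and 10122 ChIP reads, and the ratio over the stretch was 0.677 (0.660 to 0.694). As background, the mouse reference carries a copy of the ribosomal RNA repeat on chromosome 17. Whether this block is that copy was not tested.

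Other stretches away from the starts were lower in input. On chromosome 1 the stretch from 90127321 to 90161754 held 23 members with 1005 to 1173 input reads within 5 kb and a ratio of 0.818 (0.781 to 0.856). A second on chromosome 1, from 87485246 to 87489714, held 5 members and had a ratio of 0.840 (0.764 to 0.924). On chromosome 8 the stretch from 19922666 to 19927618 held 6 members and had a ratio of 0.741 (0.675 to 0.812). A stretch of 4 members on chromosome 15, from 74916531 to 74917349, was a narrow tower. Its member at 74917349 had 2107 input and 1419 ChIP reads within 100 bp, and the member at 74917207 had 1831 and 1287.

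Reads that shared start and strand with an earlier one, called repeated, differed widely between stretches. In the input they made up 4.37% of reads in the larger chromosome 1 stretch, 16.5% in the chromosome 11 stretch, 56.5% in the chromosome 17 block and 79.2% in the chromosome 15 tower. ChIP reads gave 10.7%, 19.3%, 45.4% and 71.9% in the same 4 stretches. The ChIP library thus had the larger share in the first 2 and the input library in the last 2. Within 100 bp of the 200 positions, 38.5% of ChIP and 41.4% of input reads were repeated, against 30.2% and 5.02% at the other 30491 listed positions. These shares pool the reads, so positions with many reads weigh most. In the chromosome 15 tower, 90.1% of central input reads were repeated at 74917207 and 89.7% at 74917349. Their windows overlap, so some reads were counted more than once. Repeats also grow with depth in a fixed window, so the share in the input at members is in part set by the rule. With 1 read per position and strand, the ratio of the chromosome 15 tower turned from 0.785 to 1.14, and those of the other 12 stretches kept their side of 1. These ratios were scaled to each library's distinct reads on chromosomes 1 to 19 and X, so part of a change can come from the scaling. They have no interval.

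The next comparison asked which members still had a central pile of ChIP reads. For each listed position the ChIP reads within 100 bp were set against the ChIP reads 500 to 1500 bp away on both sides (exact two-sided binomial test, Benjamini-Hochberg adjustment over all 30691 positions). A pile was called at an adjusted p under 0.05 and a density ratio of at least 2, with 0.5 reads added to each count. The list was made on this ChIP library, so a central excess is in part set by listing, and the counts are descriptions. A pile was called at 72 of the 200 members (36%), and 4 were called lower, at an adjusted p under 0.05 and a ratio of at most 0.5. Without a fold, 12 were lower. Over all listed positions 95.4% had a pile and 0.580% had fewer reads. ChIP reads of the stretch as a whole enter centre and flanks and draw the density ratio toward 1. The lower share of piles at members is thus in part set by the rule. The median density ratio was 1.65 at members (quartiles 1.25 and 2.32) and 13.6 at the other positions (7.44 and 26.5). Where flank bases within 200 bp of another listed position were left out, 127 members (63.5%) had a pile, and with a centre of 200 bp to each side 38 (19%) had one.

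The input library had much the same piles at the same places. Its median centre to flank ratio at members was 1.66, next to 1.65 for ChIP reads. An input ratio of at least 2 was about as common at members (35.0%) as over all listed positions (33.7%). It was found at 56 of the 72 members with a ChIP pile and at 10028 of the 29267 listed positions with one. Over all listed positions the input had a median of 5 central reads, where a few reads can give such a ratio. The shares at members and over all positions thus rest on unlike counts. At the other positions the input ratio had a median of 1.57, far from the 13.6 of ChIP reads. Members had a median of 70.5 ChIP and 87 input reads within 100 bp, and input reads equalled or outnumbered ChIP reads at 152 of 200 (76.0%), against 0.354% of the other positions. The last 2 values follow in part from the rule.

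**Figure D1:**
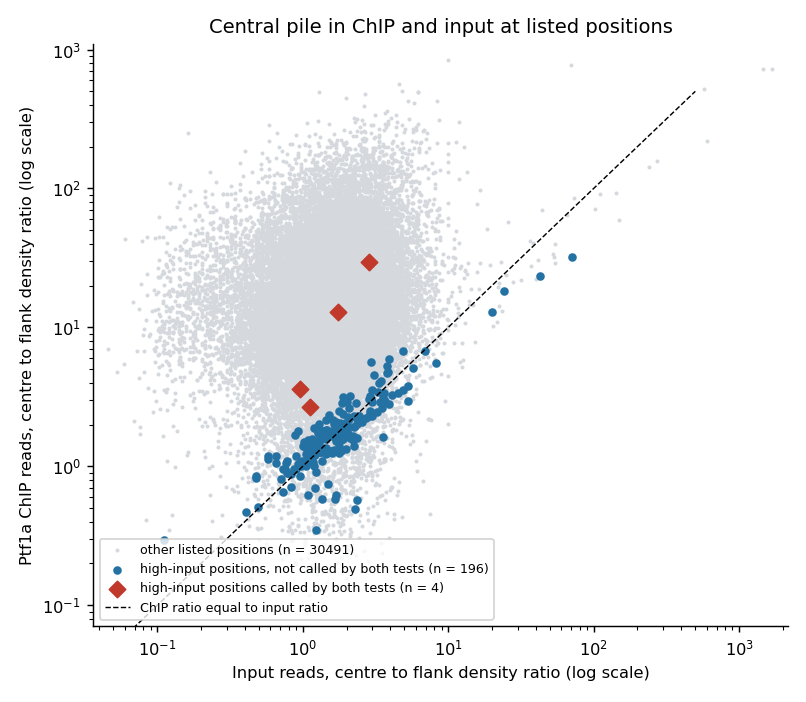
Ratio of read density within 100 bp of each listed position to that 500 to 1500 bp away, in input (x axis) and Ptf1a ChIP (y axis), both on log scales, with 0.5 reads added to each count. Grey points are the other 30491 listed positions, blue points the 196 high-input positions not called by both tests and red diamonds the 4 called by both. Most blue points lie near the dashed line of equal ratios, while most grey points lie above it.

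Each library was then set against its own flanks. Reads of the stretch as a whole enter the centre and the flanks of both libraries and draw this ratio toward 1, so a lower share of calls among members is in part set by the rule. The odds ratio of centre to flank reads, ChIP against input, was tested with Fisher's exact test (two-sided, Benjamini-Hochberg adjustment over all 30691 positions) and called at an adjusted p under 0.05 and at least 2-fold. It was higher at 6 of the 200 members (3.0%) and lower at 8, while over all listed positions 87.1% were higher and 0.912% lower. The median odds ratio was 1.03 at members (quartiles 0.849 and 1.25) and 9.07 at the others (4.40 and 19.7). Both a pile over the ChIP flanks and one beyond input were called at 4 members (2.00%), against 86.9% of all listed positions. Without the chromosome 11 stretch, 5 of 99 members (5.05%) were higher than input. With flanks 1500 to 2000 bp away, 12 of 200 were higher and 8 passed both tests.

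The calls were fewer in classes of higher local input. The classes use the value of the rule, and the same input reads enter the odds ratio, so the order is in part built in and is given as a description. Of listed positions with at most 200 input reads within 5 kb, 97.7% had a ChIP pile and 90.6% exceeded input. The values were 92.1% and 82.7% above 200 and up to 500 input reads, and 78.0% and 11% at the 100 positions above 500 and up to 1000. At members they were 36% and 3.0%. Central read counts ran the other way in the input, with a median of 4 at positions with at most 200 input reads within 5 kb and 87 at members.

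**Figure D2:**
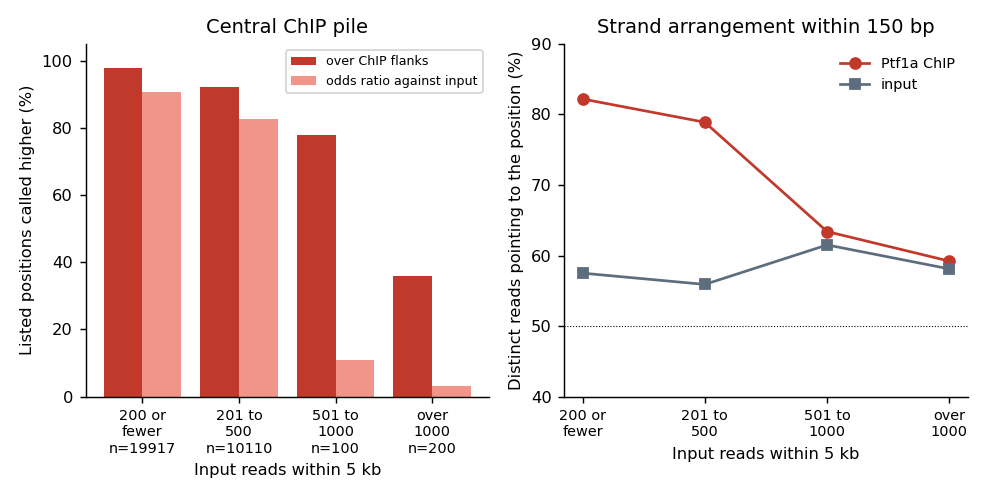
Left, percent of listed positions with a called central ChIP pile (dark bars) and with a ChIP to input odds ratio called higher (light bars), by input reads within 5 kb, with the number of positions under each class. Right, percent of distinct reads within 150 bp whose strand points to the listed position, in ChIP and input, on an axis that starts at 40%. In the highest class, ChIP and input stand at 59.2% and 58.1%.

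The strand of reads, which the rule did not use directly, was close between the libraries at members. Reads of the stretch as a whole enter both libraries and draw the ChIP value toward that of the input. The closeness is thus in part set by the rule. At a bound site plus-strand starts lie before and minus-strand starts after the position. Of distinct ChIP reads within 150 bp, 81.0% pointed to the position in this way at the other 30491 positions, against 56.9% of input reads. At members the values were 59.2% for ChIP and 58.1% for input. At the 4 members called by both tests, 70.6% of ChIP and 49.5% of input reads did so, and at the remaining 196 members 58.7% and 58.2%. The libraries thus differed in strand pattern at those 4, which were picked by their ChIP excess, and hardly at the rest. This is a description over reads, with no test.

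The authors' peak height also moved with the input at members. Heights had a median of 45 at members (20 to 309) and 36 at the other positions (20 to 396). Across members they followed the distinct ChIP reads within 100 bp (Spearman rho = 0.93) and also the distinct input reads (rho = 0.82). Across the other positions these correlations were 0.95 and 0.03. The input there had a median of only 5 reads within 100 bp, against 87 at members. The contrast in the input correlations is thus in part set by the rule. Positions of 1 stretch share their library and depth, so the correlations are descriptions. The 7 members of the chromosome 17 block had heights of 188 to 309, with none called higher than input. For instance, the position 39981173 had a height of 301, with 711 ChIP and 1278 input reads within 100 bp, and an odds ratio of 0.815 (exact 95% interval 0.735 to 0.903).

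Along whole stretches the 2 libraries rose and fell together. In windows of 100 bp, the rank correlation of ChIP and input reads was 0.97 in the chromosome 17 block, 0.92 in the chromosome 4 stretch, 0.93 in the first chromosome 8 stretch and 0.90 in the chromosome 11 stretch (769 windows). It was lowest at 0.41 to 0.46 in the larger chromosome 1 stretch and around the lone members on chromosomes 3 and 17. Neighbouring windows share fragments, so these values too are descriptions.

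**Figure D3:**
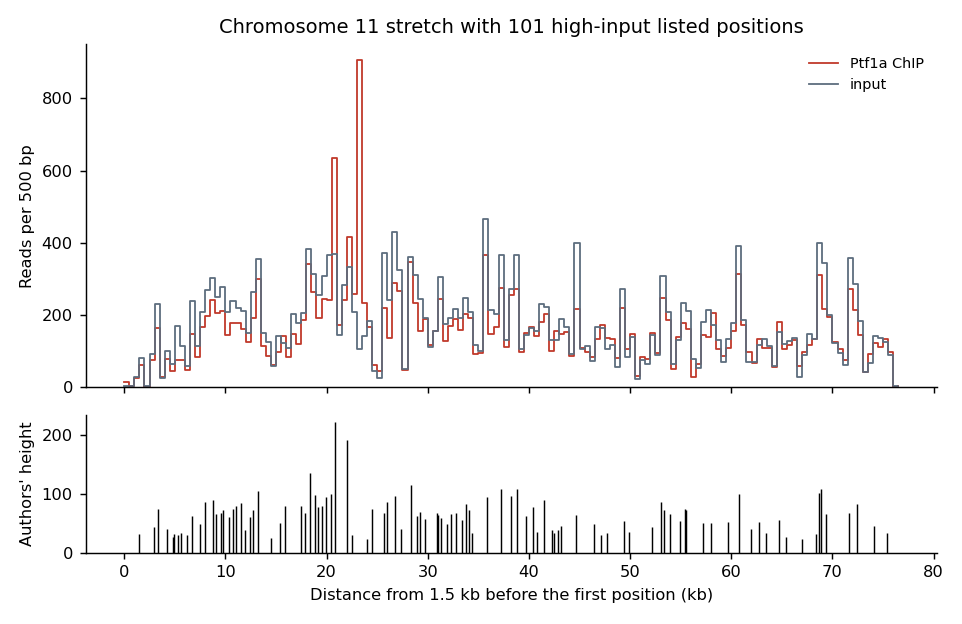
Reads per 500 bp along the chromosome 11 stretch in Ptf1a ChIP (red) and input (grey), with the authors' heights of its 101 members below, against distance in kb from 1.5 kb before the first member. The 2 libraries largely follow each other, and ChIP exceeds input most at a pair of towers between 20 and 25 kb, the taller of which has no listed position at its summit.

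Against this background 3 members stood out, each with an odds ratio interval that starts at 3.0 or above with all reads counted. The first was position 3008723 on chromosome 18, with an authors' height of 153. It had 861 ChIP reads in the centre and 287 in the flanks, and 65 and 227 input reads. The odds ratio was 10.5 (7.64 to 14.5, adjusted p = 1.74e-58, Fisher's exact test). Repeated reads made up 74.1% of its central ChIP reads and 18.5% of its input reads. Counting each start and strand once left 223 ChIP and 53 input reads in the centre. The odds ratio was then 3.47 (adjusted p = 3.03e-12, Fisher's exact test), outside the interval above. It was below the 5.78 of the position on chromosome 1 described next.

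The second was position 90151608 on chromosome 1, with a height of 151. Its centre held 250 ChIP and 34 input reads, of which 172 and 31 were distinct, and its flanks held 191 and 196. The odds ratio was 7.52 (4.94 to 11.7, adjusted p = 1.45e-25, Fisher's exact test), and 75.6% of distinct ChIP reads pointed to the position, against 54.3% of input reads. At these first 2 positions the input had centre to flank ratios of 2.87 and 1.75, against 29.8 and 13.0 for ChIP.

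The third was position 3045049 in the chromosome 11 stretch, whose height of 222 was the highest of the 101 members there. It had 398 ChIP and 117 input reads in the centre, and an odds ratio of 3.76 (3.0 to 4.74, adjusted p = 3.80e-34, Fisher's exact test). Counting each start and strand once left 232 ChIP and 98 input reads. The odds ratio was then 2.69 (adjusted p = 2.86e-14, Fisher's exact test), also outside the interval with all reads. Input had no pile at that point, with a centre to flank ratio of 0.954. The odds ratios at these 3 positions were called higher under each of the 12 alternatives run for single positions, except that the chromosome 11 position did not reach a fold of 4. Alternatives with a minimum height or with no fold left their read counts unchanged, so those could hardly remove a call.

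A further 3 members were called higher than input with less margin. Position 90158386 on chromosome 1 had 63 ChIP and 22 input reads in the centre and an odds ratio of 2.42 (1.41 to 4.29, adjusted p = 0.00102, Fisher's exact test). It also had a pile over its ChIP flanks (density ratio 2.69), and lost the call with the deposited span of 100 bp as the centre or with a centre of 200 bp to each side. Position 3031166 on chromosome 17 had 24 ChIP and 23 input reads, an odds ratio of 2.03 (1.07 to 3.87) and no ChIP pile (ratio 1.18). It lost the call with 5′ ends not moved (1.47), moved by 100 bp (1.86) or with 200 bp to each side (1.36). Position 74916531 on chromosome 15 had 64 ChIP and 33 input reads with an odds ratio of 2.64 (1.70 to 4.16), but its ChIP centre was lower than its flanks (ratio 0.294). Those flanks hold the tower described above. It lost the call with 1 read per start and strand (1.63), with the deposited span (1.58) and with flank bases near other listed positions left out (1.33). None of these 3 reached a fold of 4.

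Of the 10 members named for the lower limit of their odds ratio, at most 3 per stretch, the remaining 4 were not called at 2-fold. They were positions 3091168 and 3040025 on chromosome 11, 3011190 on chromosome 3 and 19924103 on chromosome 8, with odds ratios of 1.97, 1.67, 1.90 and 1.48. The last of these had 121 ChIP and 120 input reads in its centre, and both libraries had a pile there, with ratios of 4.56 and 3.07. It is one of 6 members in that chromosome 8 stretch, where a ChIP pile was called at all 6 and none exceeded input. Of the 4, position 3011190 reached the call with 5′ ends moved by 100 bp (2.01) or with the deposited span (2.27). Position 3091168 reached it with flanks 1500 to 2000 bp away (2.24).

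**Figure D4:**
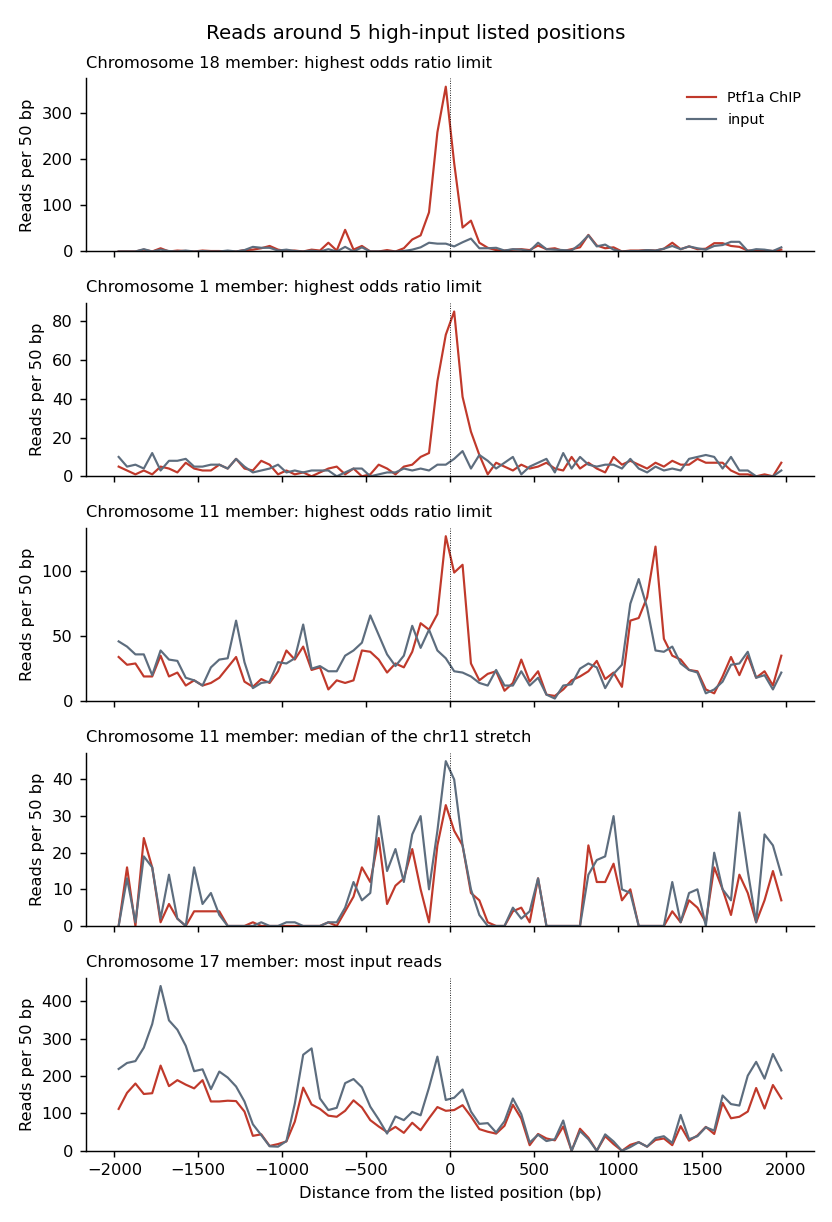
Reads per 50 bp in Ptf1a ChIP (red) and input (grey) against distance from the listed position, for the 3 members with the highest lower limit of the odds ratio, the median member of the chromosome 11 stretch by odds ratio and the member with the most input reads. The top 3 panels show a central ChIP pile far higher than any input rise there (input ratios 2.87, 1.75 and 0.954), and in the lower 2 panels both libraries share most of their peaks and gaps.

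The 5 lowest odds ratios were at members 610 to 1308 bp from a strong ChIP pile. Whether the piles set these values was not tested, and the alternatives differed between members. A scan of the 13 stretches in windows of 200 bp, chosen after the data had been seen, looked for at least 50 distinct ChIP reads at more than 4 times the scaled input. It found 3 such piles. One lay at position 3008723 on chromosome 18 and one at 90151608 on chromosome 1, both described above. Members 3009545 and 3010073 on chromosome 18, at 780 and 1308 bp from the first pile, had odds ratios of 0.215 and 0.285. On chromosome 1, members 90152259 and 90152378 lay 658 and 777 bp from the second and had odds ratios of 0.348 and 0.366. With flanks 1500 to 2000 bp away, the odds ratios of these 2 were 0.922 and 0.921 and that of 3009545 was 0.740, none of them called, while 3010073 stayed called at 0.297. Where flank bases near other listed positions were left out, the 2 members on chromosome 1 had 0.657 and 0.774 and 3010073 had 1.40, not called, while 3009545 stayed called at 0.361.

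The third pile of the scan, on chromosome 11, was not at a listed position. From 3047492 to 3047691 there were 895 ChIP reads, 313 of them distinct, and 93 input reads. This is 9.44 times the scaled input (7.62 to 11.8). The nearest listed position, 3048202, lay 610 bp from its centre, with 73 ChIP and 87 input reads within 100 bp and an odds ratio of 0.242 (0.171 to 0.341). That value was 0.909, not called, with flanks 1500 to 2000 bp away, and 0.161 with flank bases near other listed positions left out. The listed heights on both sides of this pile, at 3046731 and 3048202, were 30 and 24.

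The members were one part of the high-input sequence. On chromosomes 1 to 19 there were 24 blocks with points above 1000 input reads within 5 kb, 13 with members and 11 without. Listed positions with fewer input reads that may lie inside a block were not counted. The blocks without members held far more reads, 428102 input reads (1.53% of the library) against 68900 (0.246%). A single block on chromosome 2, from 98497500 to 98512400, held 347372 input and 384171 ChIP reads. Only 2083 of its input reads were distinct, so 99.4% were repeats. On chromosome 9 the block from 35107900 to 35118100 held 30833 input reads, 98.5% of them repeated, and the one from 2995100 to 3041600 held 38154, 91.1% repeated.

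Blocks with members were less repetitive in this measure. Repeated reads in the input ranged from 4.34 to 77.6% in them, with a median of 21.2%, and from 11.1 to 99.4% in the blocks without, with a median of 83.1%. The ranges overlapped. The scaled ratio of ChIP to input had a median of 0.783 in blocks with members (0.390 to 1.52) and 1.08 in those without (0.323 to 1.19). How the authors treated repeated reads or input when they made the list is not given in the sources used here, and its part in this split was not tested.

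**Figure D5:**
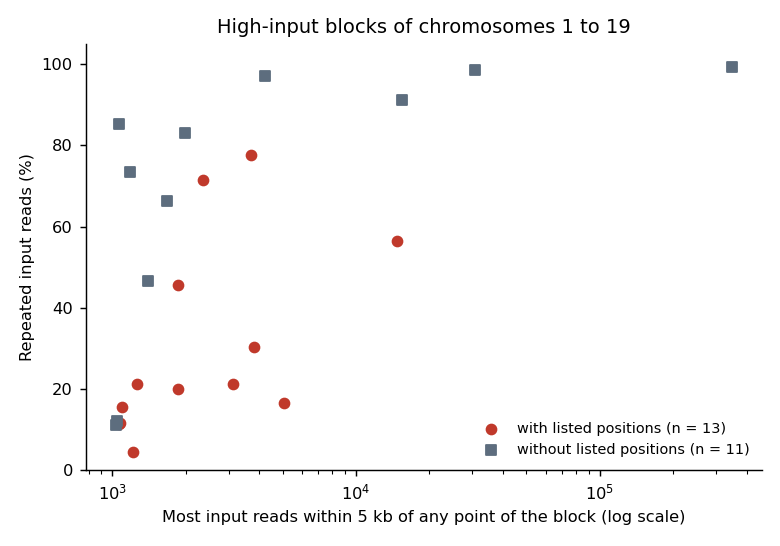
Repeated reads in the input (percent) against the most input reads within 5 kb of any point of the block (log scale), for the 24 high-input blocks of chromosomes 1 to 19. Red circles are the 13 blocks with members, labelled as with listed positions, and grey squares the 11 without members. The 3 blocks with the most input reads, on the right, have 91.1 to 99.4% repeated reads and no member.

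At the edge of the rule, 3 positions on each side of the threshold were compared. The 3 members with the fewest input reads, 90136023, 90127321 and 87489714 on chromosome 1, had 1005, 1011 and 1016 within 5 kb. The 3 positions just outside had 997 (90137430 on chromosome 1), 992 (3010819 on chromosome 18) and 987 (90127048 on chromosome 1). Their ChIP centre to flank ratios were 1.80, 1.81 and 2.38 inside and 2.46, 1.92 and 2.17 outside. No member or position among these 6 was called higher than input. Most of the 6 lay in or beside the larger chromosome 1 stretch, where neighbours share input windows and flanks. Close values there were thus in part set beforehand. Over the 100 positions above 500 and up to 1000 input reads, the median ChIP centre to flank ratio was 3.02, against 1.65 at members.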

How the data were processed

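In the deposited read files each line is 1 placed read and carries a count of 1, not normalized, on mm9 per the submitters' processing notes. The authors also deposited a peak list whose signal value, a whole number of 20 or more per span of 100 bp, is called the height. The sources used here name no aligner, read filter or peak caller, and do not say whether input entered the calling.

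Each 5′ end was moved 73 bp downstream. Centres reached 100 bp to each side, and flanks held 2002 bp in all. Binomial and Fisher's exact tests (scipy 1.17.1, Python 3.11.15) ran over all 30691 positions with Benjamini-Hochberg adjustment, after a test on simulated data. The simulated counts were independent draws around the flank counts, without repeated reads. They do not cover the repeated and uneven reads at members. Named members were the 10 with the highest lower limit of the odds ratio (at most 3 per stretch), the 5 with the lowest, the 5 with the most input, and 3 on each side of the threshold. Stretches with 5 or more members were named, and others after their values were seen. Members, rules and tests were chosen with earlier results of these data known. Total depth was alike in both libraries, so scaled ratios over all reads differ little from ratios of reads. No sequence is printed, since no genome of mm9 was used. Alternatives changed the windows, flanks, reads counted, fold, heights and threshold.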

Additional observations from a re-analysis of the deposited data

How the results depend on the processing

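No paired analysis was possible because each group had 1 library. Under the alternatives run, the share of members higher than input stayed between 1.0% and 8.0%, while that of all listed positions ran from 77.3% to 96.4%. Shares of members with a ChIP pile, 36% as reported, moved to 19% with 200 bp to each side, 63.5% with neighbours left out of the flanks, 8.50% at a fold of 4 and 69.0% with no fold. The share beyond input, 3.0%, moved to 5.50% with the deposited span, 6.0% with flanks 1500 to 2000 bp away, 1.0% at a fold of 4, 8.0% with no fold, 5.05% without the largest stretch, 6.25% without the first 3.3 Mb, and 5.67% and 1.5% at thresholds of 500 and 2000 input reads. The share called by both tests, 2.0%, an outcome added after seeing the data, moved to 4.0% with flanks 1500 to 2000 bp away, 4.0% with neighbours left out, 3.3% at heights of at least 50, 1.0% at a fold of 4, 5.0% with no fold, 3.03% without the largest stretch, 4.17% without the first 3.3 Mb, and 4.33% and 0.752% at 500 and 2000 input reads. Members numbered 133 above 2000 input reads, 91 at heights of at least 50, and 164 with 1 read per position and strand. They lay in 36 stretches (55.7% in the first 3.3 Mb) above 500 reads, in 5 (91.7%) above 2000, and 51.5% lay there without the largest stretch. Of the single values, 2 changed side of 1. The odds ratio at 3010073 on chromosome 18 was 1.40 with neighbours left out. The chromosome 15 stretch had a ratio of 1.14 with 1 read per position and strand, scaled to distinct reads. The causes were not tested, beyond fewer positions counted or a different fold by construction.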

Other observations

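On chromosome X, 23 listed positions had more than 1000 input reads within 5 kb, with a median of 1221, in a block from 166422400 to 166437200. Their ChIP to input ratio over the block was 0.966 (exact 95% interval 0.905 to 1.03). A central ChIP pile was called at 7 (30.4%) and a ChIP to input odds ratio at 3 (13.0%), with 2 passing both. Distinct ChIP reads pointed to the position at 58.2% and input reads at 55.6%. Heights there followed the distinct input reads less closely than at the 200 positions (rho = 0.24, against 0.82), and this difference was not tested. The chromosome X value is within a single block. That of the 200 pools 13 stretches with 1005 to 14696 input reads within 5 kb, so the 2 values are not alike in range. Another block on chromosome X, from 139912600 to 139922600, held 6132 input reads, of which 135 were distinct. It held no listed position with more than 1000 input reads within 5 kb.

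The 100 listed positions with more than 500 and up to 1000 input reads within 5 kb had a higher input density in the centre over the flanks than the 200. Their median input centre to flank ratio was 2.29, against 1.66, and 64 of them had a ratio of at least 2. Within 100 bp of them, 45.3% of input reads and 37.7% of ChIP reads were repeated. Heights followed distinct input reads here too (rho = 0.70), and 15 of these positions were within 3.3 Mb of a chromosome's first base.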
